A study of Mus musculus with 4 samples.

Results

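Potassium channel genes were followed across sciatic nerve libraries of 4 mouse genotypes. They were taken by symbol: Kcn followed by a letter and a digit, together with the calcium-activated channel gene Kcnma1 and its Kcnmb subunits. Pseudogene, opposite-strand and overlapping-transcript symbols were left out by the letters that mark them. The rule found 87 of the 24062 rows, and 49 of them reached 1 CPM (the usual depth-scaled count, here with TMM factors) in at least 1 library, among 14700 genes that did so. Those 49 comprise 20 of 40 voltage-gated, 8 of 15 inward rectifier, 8 of 14 two-pore, 8 of 8 calcium- or sodium-activated and 5 of 10 auxiliary rows. One of the 87 rows, Kcnmb4os1, is annotated as an antisense RNA and stayed under 1 CPM.

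The mice were C57BL/6 and 4 months old. PKO-NF1 nerves came from mice lacking P2ry14 (P2RY14-/-), a receptor gene for UDP-sugars. These mice also carried floxed Nf1 (written Nf1fl/f in the label) with Dhh Cre. This driver removes Nf1 in the Schwann cell lineage and not in every cell of the nerve. NF1 nerves had the floxed alleles (Nf1fl/fl) and Dhh Cre with P2ry14 intact, and the label of that library calls it a repeat. PKO nerves lacked P2ry14 alone, and WT nerves carried neither mutation. Each genotype has 1 library, so no difference below has a replicate check. How many animals a library holds, and their sex, are not in the labels. A ratio compares 2 libraries, with an exact conditional 95% interval that covers counting error only. A gene counts as higher or lower where it is at least 2-fold apart and its interval excludes 1.

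Potassium channels let potassium leave or enter cells and set the resting membrane potential. In myelinated nerve, voltage-gated channels of the Kv1 family lie beside the nodes of Ranvier under the myelin sheath, and two-pore channels carry resting current. Glial inward rectifiers take up potassium released by active axons. Muscle and vessel wall use other members of the same families, so whole nerve RNA mixes several sources. In such RNA, fewer cells of a type and less RNA per cell cannot be told apart.

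The libraries held 17771101 (PKO-NF1), 19064779 (NF1), 20362685 (PKO) and 14111201 (WT) counts, so that a gene with no count may still lie at up to 0.152 to 0.183 CPM (3 counts). Of 20 skeletal muscle genes, 19 were measured, and together they summed to 58630 CPM in NF1 against 149.6 to 1038 CPM in the other libraries. Myh7 was at 0 in all 4 libraries. Schwann markers identified the tissue as nerve in each library, since the 10 myelinating genes summed to 17700 CPM in PKO-NF1, 7301 in NF1, 33190 in PKO and 22820 in WT. P2ry14 was at 10.6 CPM in PKO-NF1 and 10.8 CPM in PKO, against 65.3 CPM in NF1 and 37.6 CPM in WT. Nf1 was at 20.5 CPM in PKO-NF1, 63.4 in NF1, 41.0 in PKO and 72.8 in WT. The library labelled NF1 was 1.15-fold below WT for this gene (1.06 to 1.24) and above PKO, and PKO-NF1 was 2.0-fold below PKO (1.75 to 2.28), so whole-nerve Nf1 did not sort the libraries by their labelled Nf1 genotype. Xist had 9 counts in PKO-NF1, 39699 in NF1, 4948 in PKO and 10304 in WT. The Y-linked gene Ddx3y had 842, 0, 396 and 813 counts in the same libraries. By these 2 genes NF1 appeared female and PKO-NF1 male, while PKO and WT held both transcripts. In PKO-NF1 against NF1, sex and P2ry14 genotype therefore cannot be told apart. The other comparisons also differ in Xist and Ddx3y counts.

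The voltage-gated genes Kcna7, Kcnc1, Kcnc4 and Kcng4 had at most 11 counts in every library but NF1, where they had 110 to 422. Their promoters are shown because these genes were high in the same library. Each is the RefSeq (GRCm38) window of 250 bases before to 50 after the annotated start, written along the strand of the gene, with every E-box of the form CANNTG in capitals. GENCODE, the annotation used here for gene positions, starts Kcna7 at 45405653 and Kcnc4 at 107459552. By that annotation the windows of Kcna7 and Kcnc4 lie wholly inside the gene and not before its start. The E-box is the core letter pattern that basic helix-loop-helix factors, the myogenic ones among them, can bind.
Kcna7 (chr7:45405710-45406009, plus strand): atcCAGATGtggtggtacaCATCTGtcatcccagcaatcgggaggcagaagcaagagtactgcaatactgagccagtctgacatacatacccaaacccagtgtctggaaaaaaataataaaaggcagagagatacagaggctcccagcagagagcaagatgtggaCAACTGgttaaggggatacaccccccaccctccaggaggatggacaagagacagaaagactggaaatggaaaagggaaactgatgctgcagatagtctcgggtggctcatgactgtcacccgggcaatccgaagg
Kcnc1 (chr7:46396218-46396517, plus strand): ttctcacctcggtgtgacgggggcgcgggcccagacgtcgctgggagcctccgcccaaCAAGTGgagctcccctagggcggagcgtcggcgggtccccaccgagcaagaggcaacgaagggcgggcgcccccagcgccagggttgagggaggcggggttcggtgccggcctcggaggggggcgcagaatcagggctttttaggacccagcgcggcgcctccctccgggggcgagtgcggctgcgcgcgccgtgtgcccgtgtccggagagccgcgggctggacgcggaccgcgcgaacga
Kcnc4 (chr3:107458849-107459148, minus strand): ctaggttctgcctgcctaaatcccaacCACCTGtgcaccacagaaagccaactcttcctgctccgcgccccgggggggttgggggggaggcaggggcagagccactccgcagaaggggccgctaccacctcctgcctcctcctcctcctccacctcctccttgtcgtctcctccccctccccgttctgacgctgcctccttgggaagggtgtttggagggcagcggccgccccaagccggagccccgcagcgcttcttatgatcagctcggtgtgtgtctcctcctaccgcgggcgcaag
Kcng4 (chr8:119635631-119635930, minus strand): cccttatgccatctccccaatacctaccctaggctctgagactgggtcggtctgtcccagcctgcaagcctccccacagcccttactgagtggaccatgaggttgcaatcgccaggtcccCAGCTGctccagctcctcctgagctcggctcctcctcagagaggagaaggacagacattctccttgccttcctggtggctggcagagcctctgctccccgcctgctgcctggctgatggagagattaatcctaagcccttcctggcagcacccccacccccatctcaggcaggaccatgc
The Kcna7 window holds 3 matches and the others 1 each. CANNTG reads alike on both strands, and 72.3% of all 32851 promoters of this length hold it, as do 35 of 47 windows of described channel genes (74.5%). The form CAGCTG, present in the Kcng4 window, is in 16.3% of all promoters and in 17 of the 47 (36.2%). A match describes letters in a window and not a bound site.

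**Figure D1:**
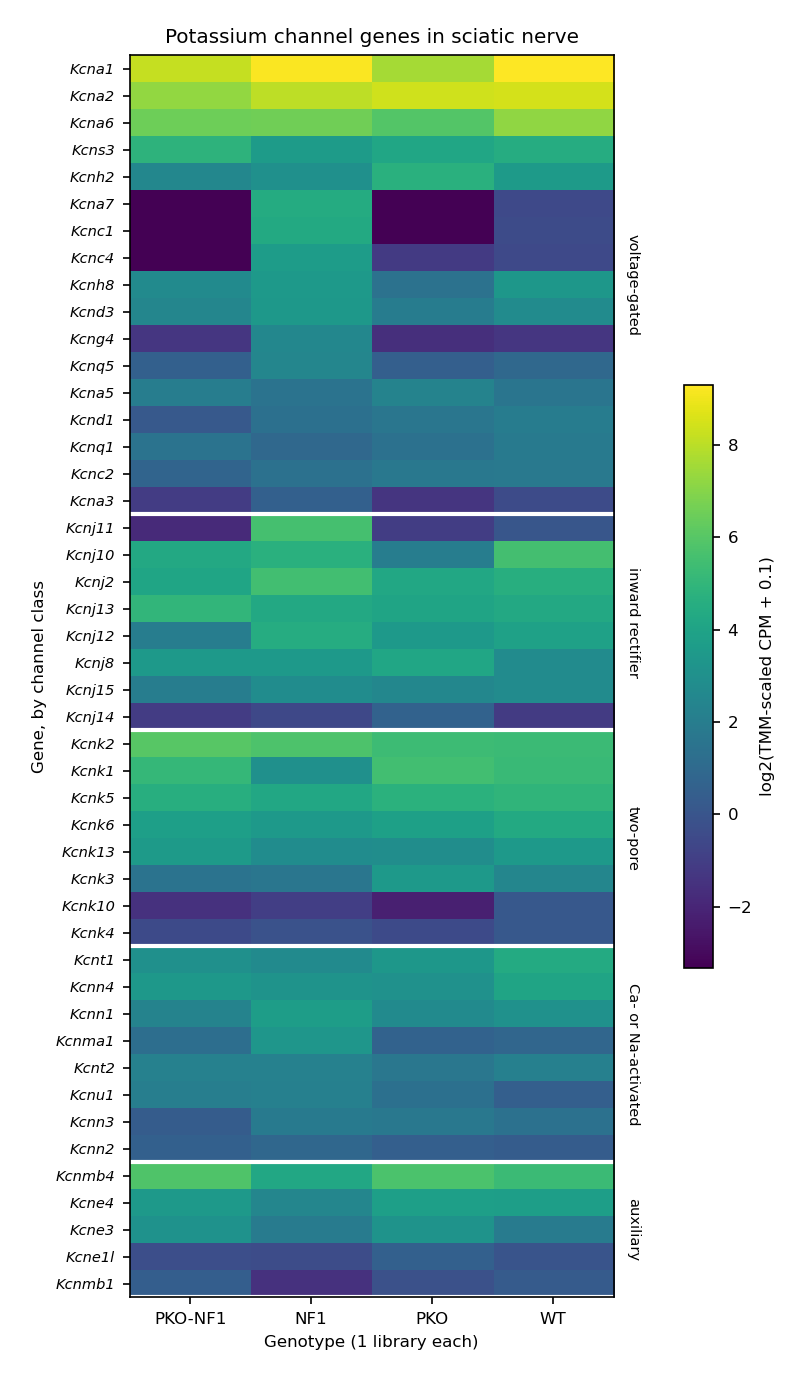
Heat map of log2(CPM + 0.1) for potassium channel genes at 1 CPM or more in any library, by class and by library (PKO-NF1, NF1, PKO, WT). CPM is not per transcript length, so colours are read along a row; Kcna7, Kcnc1, Kcnc4 and Kcnj11 stand out in NF1, and Kcnj10 is low in PKO.

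Not every member had equal room to differ. Of the 49 genes, 37 were at 1 CPM or more in all 4 libraries, and 10 passed in 1 library only: 6 in NF1 (Kcna3, Kcna7, Kcnc1, Kcnc4, Kcng4 and Kcnj11), 2 in PKO (Kcne1l and Kcnj14) and 2 in WT (Kcnk10 and Kcnk4). Genes that pass through the single library where they are high had to differ there, so counts over the 49 describe and support nothing. Just inside the threshold were Kcnk10 and Kcnk4, both with a highest level of 1.00 CPM, and just outside were Kcnk7 at 0.675 CPM and Kcnf1 at 0.660 CPM. Of the 87 rows, 9 had no count in any library: Kcnh6, Kcnh7, Kcnj6, Kcnk9, Kcnk15, Kcnk16, Kcnk18, Kcne2 and Kcnmb3.

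Per kilobase of longest transcript, Kcna1 was the most abundant member in all 4 libraries, at 71.9 CPM per kb in PKO-NF1, 148 in NF1, 48.5 in PKO and 157 in WT. It averaged 106 CPM per kb, against 25.9 for Kcnmb4, 24.3 for Kcna2, 17.2 for Kcnj13, 16.8 for Kcna6, 13.9 for Kcnk1 and 13.9 for Kcnk2. Annotation overlaps limit some of these levels, because the sources used here do not give the strand setting of the counting. Of the 49 genes 18 share exon bases with another annotated gene, 17 of them on the opposite strand only. Kcnj13 shares 623 bases with Gigyf2, and Kcna6 shares 2355 with Gm26673. Kcnmb4, with a longest transcript of 1626 bases, shares 355 with Kcnmb4os1 and 693 with Kcnmb4os2.

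Kcna1, Kcna2 and Kcna6 encode voltage-gated subunits of the Kv1 family, the first pair being the main channel subunits beside the nodes. Kcna1 (ENSMUSG00000047976) is a minus-strand gene of chromosome 6 (GRCm38, 126640397 to 126646384). It was at 290.0 CPM in PKO-NF1, 598.3 in NF1, 195.3 in PKO and 633.5 in WT. Both P2ry14-null libraries were below both others, by 3.24-fold in PKO against WT (interval 3.12 to 3.37) and by 2.06-fold in PKO-NF1 against NF1 (1.99 to 2.13). In NF1 against WT it was 1.06-fold lower (1.03 to 1.09), and in PKO-NF1 against PKO it was 1.48-fold higher (1.42 to 1.55). With spline trends of the ratios over gene length and GC content taken out (trends removed), the Kcna1 log2 ratio of PKO-NF1 against NF1 was -0.97 in place of -1.04, which ends the call.

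Kcna6, 61.9 kb from Kcna1 on the same strand, was at 91.1 CPM in PKO-NF1, 93.5 in NF1, 60.3 in PKO and 146.4 in WT. WT was the highest library and PKO the lowest, with PKO 2.43-fold below WT (2.26 to 2.61) and PKO-NF1 1.51-fold above PKO (1.40 to 1.64). The PKO ratio to WT was -0.99 on the log2 scale with the trends removed, against -1.28, and was then not called. Kcna5, the third gene of that cluster and a Kv1 gene of cardiac and vascular muscle, was at 4.03 CPM in PKO-NF1, 2.69 in NF1, 4.89 in PKO and 2.95 in WT, and no comparison called it.

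Kcna2 (chromosome 3, 107101146 to 107115005, plus strand) had another order. Its levels were 152.1 CPM in PKO-NF1, 268.2 in NF1, 341.9 in PKO and 363.4 in WT. Both libraries with Dhh Cre were below both without it, by 2.25-fold in PKO-NF1 against PKO (2.14 to 2.36) and by 1.35-fold in NF1 against WT (1.31 to 1.41). The 2.25-fold difference was -0.64 on the log2 scale with the trends removed and was not called. Per kilobase, Kcna1 made up 71.5% of the 3 genes together in PKO-NF1, 79.1% in NF1, 54.9% in PKO and 73.6% in WT. Kcna2 was 13.0%, 12.3%, 33.4% and 14.7% of that sum in the same libraries, so PKO stood apart in the balance of the subunits. The 3 genes carried 38.6% of the CPM per kb of all described members in PKO-NF1, 55.3% in NF1, 36.8% in PKO and 58.4% in WT. Kcna3, a Kv1 gene of lymphocytes and microglia located 63.1 kb from Kcna2, was at 0.366 CPM in PKO-NF1, 1.37 in NF1, 0.281 in PKO and 0.649 in WT.

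Non-myelinating Schwann cell markers moved the same way as Kcna1 and Kcna6 across the P2ry14 comparison of PKO with WT. Their 6 genes summed to 628.9 CPM in PKO-NF1, 825.4 in NF1, 391.3 in PKO and 832.1 in WT. Of these 6, 5 were lower in PKO than in WT, against 5.22% of all genes, with none at 0. The 10 myelinating genes had none lower in that comparison, and the 5 Schwann lineage genes had 2 lower. In PKO-NF1 against NF1, where Kcna1 was also lower, 0 of the 6 non-myelinating genes were called lower. There 2 of the 5 lineage genes were lower, against 13.8% of all genes. The part of these cells in the channel results was not tested.

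**Figure D2:**
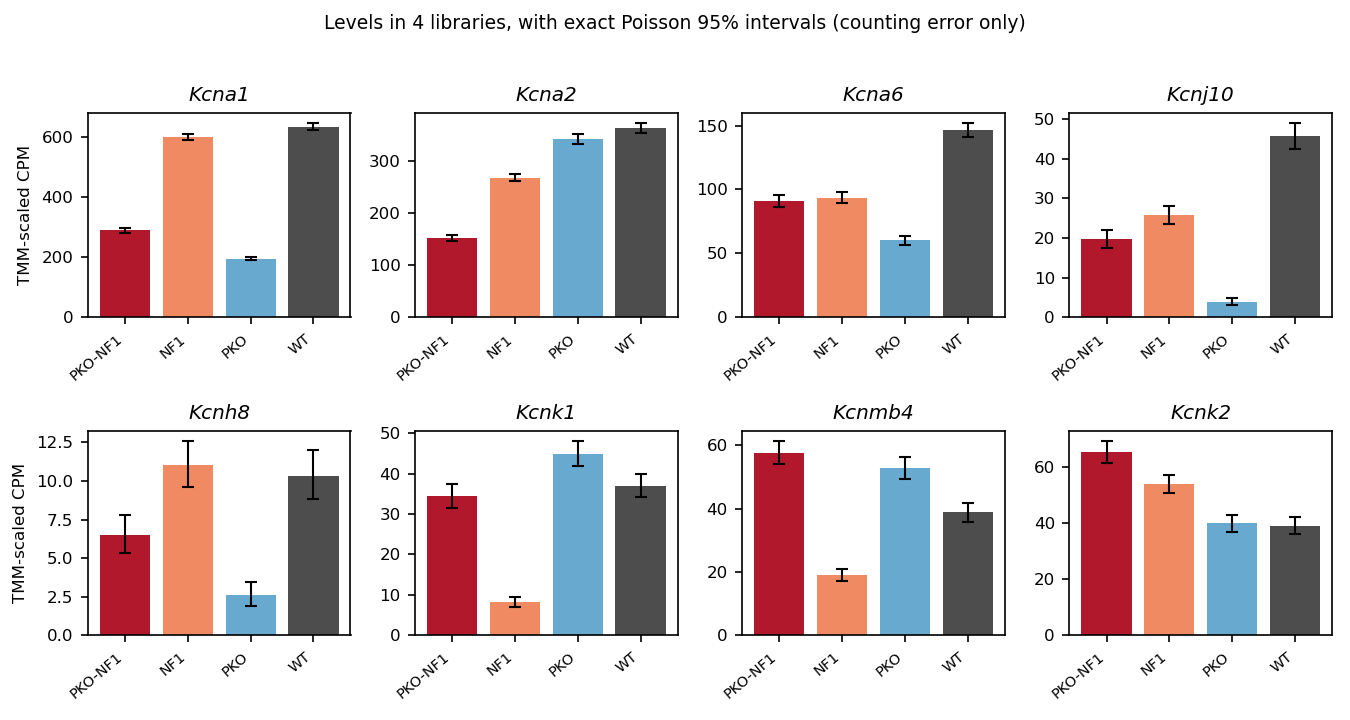
Bars give TMM-scaled CPM of 8 potassium channel genes in 1 library per genotype (PKO-NF1, NF1, PKO, WT), with exact Poisson 95% intervals for counting error. Kcna1, Kcna6, Kcnj10 and Kcnh8 are lowest in PKO, Kcna2 is lowest in PKO-NF1, and Kcnk1 and Kcnmb4 are lowest in NF1.

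Among inward rectifiers, Kcnj10 (chromosome 1, 172341210 to 172374085, plus strand) encodes Kir4.1, the channel through which glial cells clear potassium. It was at 19.6 CPM in PKO-NF1, 25.7 in NF1, 3.94 in PKO and 45.7 in WT. PKO was far below the other libraries, 11.6-fold below WT (9.08 to 15.0), and PKO-NF1 was 4.99-fold above PKO (3.84 to 6.56). NF1 was 1.78-fold below WT (1.59 to 1.99) and PKO-NF1 1.31-fold below NF1 (1.14 to 1.51). The PKO ratios were almost the same with the trends removed, at -3.36 against WT and, for PKO-NF1 against PKO, 2.57 on the log2 scale. Both large ratios contain the PKO library, so a low value in that library is shared by them. Kcnj9, its neighbour at 11.9 kb, had at most 7 counts.

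Kcnh8, a voltage-gated gene of the ether-a-go-go-like group, was at 6.47 CPM in PKO-NF1, 11.01 in NF1, 2.59 in PKO and 10.3 in WT. PKO was its lowest library and PKO-NF1 the next, as for Kcna1. It was 3.99-fold lower in PKO than in WT (2.87 to 5.65) and 2.50-fold higher in PKO-NF1 than in PKO (1.75 to 3.62). Kcnj10 and Kcnh8 were the 2 members higher in PKO-NF1 than in PKO.

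The remaining inward rectifiers were led, per kilobase, by Kcnj13, Kcnj12 and Kcnj2. Kcnj13, a rectifier of transporting epithelia, was at 32.2 CPM in PKO-NF1, 19.4 in NF1, 16.4 in PKO and 19.5 in WT, with PKO-NF1 1.96-fold above PKO (1.70 to 2.27). Kcnj2 and Kcnj12, strong rectifiers of striated muscle and endothelium, were each highest in NF1. Kcnj2 was at 17.2 CPM in PKO-NF1, 44.1 in NF1, 18.9 in PKO and 24.4 in WT, 2.56-fold below NF1 in PKO-NF1 (2.24 to 2.94). Kcnj12 was at 4.03, 22.4, 10.9 and 14.9 CPM in those libraries, lower in PKO-NF1 than in both NF1 (5.56-fold, 4.28 to 7.31) and PKO (2.71-fold, 2.04 to 3.64). Kcnj8, the pore subunit of ATP-sensitive channels in vessel wall, was at 10.9 CPM in PKO-NF1, 11.4 in NF1, 17.4 in PKO and 6.73 in WT. Its PKO level was 2.59-fold above WT (2.08 to 3.24). Kcnj14 had 6 counts in PKO-NF1, 11 in NF1, 26 in PKO and 6 in WT, with PKO 4.13-fold above WT (1.66 to 12.3). Kcnj15 lay between 4.03 and 6.95 CPM.

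The NF1 library carried a set of channel genes that the others had little of. Kcnj11, which encodes Kir6.2, the pore of ATP-sensitive channels in muscle and beta cells, had 3 counts in PKO-NF1, 942 in NF1, 7 in PKO and 16 in WT. Its level of 47.8 CPM in NF1 was 50.6-fold above WT (31.0 to 88.9), and PKO-NF1 was 261-fold below NF1 (89.1 to 1270). Kcna7, a Kv1 gene of striated muscle, had 0 counts in PKO-NF1, 422 in NF1, 0 in PKO and 10 in WT. That is 36.3-fold above WT in NF1 (19.5 to 76.2) and, with the 0 counts set to 3, at least 117-fold lower in PKO-NF1 than in NF1 (the exact interval starts at 94.7). Kcnc1, a fast delayed rectifier gene, had 0 counts in PKO-NF1, 401 in NF1, 0 in PKO and 11 in WT, 31.4-fold above WT in NF1 (17.3 to 63.3). Kcnc4, its relative with fast inactivation, had 0 counts in PKO-NF1, 251 in NF1, 6 in PKO and 10 in WT, 21.6-fold above WT in NF1 (11.5 to 45.6). Kcng4, a silent subunit that modifies other voltage-gated channels, had 5 counts in PKO-NF1, 110 in NF1, 4 in PKO and 5 in WT, 18.9-fold above WT in NF1 (7.87 to 59.4).

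Skeletal muscle markers were high in the same library as these 5 genes. All 19 measured markers were higher in NF1 than in WT, with a median log2 ratio of 5.69, and 18 of 19 were lower in PKO-NF1 than in NF1. Among the other libraries the marker sum was 314.2 CPM in PKO-NF1, 149.6 in PKO and 1038 in WT. Of those libraries WT had the most counts of Kcnj11, Kcna7, Kcnc1 and Kcnc4, but Kcng4 had 4 or 5 counts in each, and Kcnj11 and Kcnc4 had fewer counts in PKO-NF1 than in PKO. How much of each channel count came from muscle was not tested. In PKO-NF1 against PKO, which holds no NF1 library, none of the 5 was called, while 9 of the 19 markers were higher and 2 lower. In PKO against WT, Kcna7 was at least 3.50-fold and Kcnc1 at least 3.85-fold lower with the 0 counts set to 3, while their exact intervals start at 2.35 and 2.63. In that comparison 14 of the 19 markers were lower and 1 higher. Lrrc38, which encodes an auxiliary subunit of the large-conductance channel, was also high there, with 0 counts in PKO-NF1, 124 in NF1, 2 in PKO and 3 in WT.

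**Figure D3:**
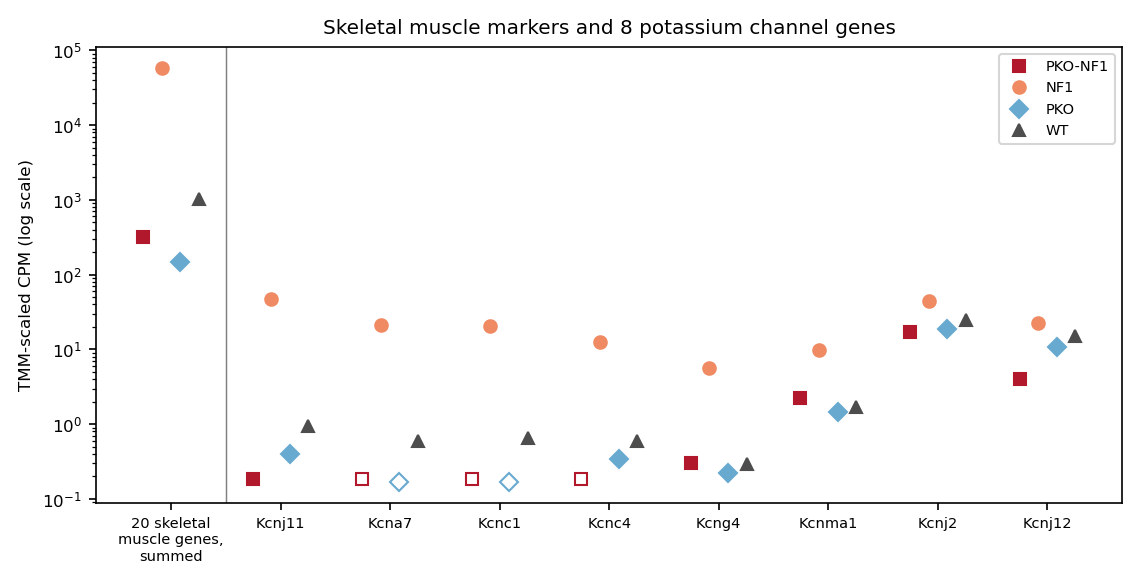
Points give TMM-scaled CPM on a log axis for the sum of 20 skeletal muscle genes and for 8 potassium channel genes in PKO-NF1, NF1, PKO and WT, 1 library each. Open symbols mark a count of 0 drawn at the level of 3 counts. NF1 is the highest library for each of the 9 columns.

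Kcnma1, the large-conductance calcium-activated channel of smooth muscle and nerve, was at 2.26 CPM in PKO-NF1, 9.85 in NF1, 1.46 in PKO and 1.71 in WT. It was 5.75-fold above WT in NF1 (3.88 to 8.82). Kcnq5, a voltage-gated gene of the M-current family found in muscle as well as neurons, was 3.02-fold higher in NF1 (5.53 CPM) than in WT (1.83 CPM; 2.01 to 4.66). Kcnu1, known from sperm, was 3.40-fold higher in NF1 (4.42 CPM) than in WT (1.30 CPM; 2.11 to 5.70), and it stayed at 4.15 CPM in PKO-NF1. Kcna3 completed the 9 members higher in NF1, on 27 counts against 11. Those 9 of 49 are 18.4%, against 10.4% of all genes tested, and 6 of the 9 reached 1 CPM in NF1 alone.

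Of the 8 two-pore channel genes described, 2 were called lower in NF1 than in WT, Kcnk1 and Kcnk10, where 6.31% of all genes were. A ratio below 1 was found for 7 of the 8, against 50.1% of all genes, with a median log2 ratio of -0.77 against 0.00. The Kcnk10 call rests on 8 counts against 17 (2.47-fold, 1.01 to 6.62) and was lost with DESeq2 size factors and with the trends removed. Kcnk10 and Kcnk4 reached 1 CPM in WT alone, so both had to be highest there and below WT in NF1. Kcnk4 had 16 counts in NF1 and 17 in WT. With the trends removed the same 7 genes stayed below WT. The log2 ratio was then -0.34 for Kcnk3 in place of -0.89, -0.35 for Kcnk5 in place of -0.70, and -2.23 for Kcnk1 in place of -2.19. Kcnk1, which encodes the weak inward rectifier TWIK-1, was at 34.4 CPM in PKO-NF1, 8.12 in NF1, 44.9 in PKO and 37.0 in WT. NF1 was thus well below the other libraries, 4.56-fold below WT (3.82 to 5.46), and PKO-NF1 was 4.24-fold above NF1 (3.55 to 5.08). Kcnk2, which encodes the mechanically gated TREK-1, was the 1 of 8 with a ratio above 1. It was at 65.3 CPM in PKO-NF1 and 54.0 CPM in NF1, against 39.9 CPM in PKO and 39.0 CPM in WT. Both libraries with Dhh Cre were above both without it, by 1.64-fold in PKO-NF1 against PKO (1.49 to 1.80) and 1.38-fold in NF1 against WT (1.26 to 1.53), under the 2-fold threshold.

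Kcnk10, a relative of TREK-1, was at 0.244 CPM in PKO-NF1, 0.406 in NF1, 0.112 in PKO and 1.00 in WT. Its PKO level rests on 2 counts. Kcnk5, an alkali-activated two-pore channel, was at 24.0 CPM in PKO-NF1, 18.6 in NF1, 26.8 in PKO and 30.2 in WT. Kcnk6 and Kcnk13 ranged from 11.4 to 20.2 CPM and from 6.85 to 11.8 CPM. Kcnk3, an acid-sensitive channel of arterial smooth muscle, was at 2.69 CPM in PKO-NF1, 2.99 in NF1, 11.4 in PKO and 5.55 in WT. PKO-NF1 lay 4.23-fold below PKO (3.04 to 6.00), and PKO lay 2.05-fold above WT (1.6 to 2.64).

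Of the 5 auxiliary subunit genes, 3 were called lower in NF1 than in WT, Kcnmb4, Kcne4 and Kcnmb1, with a median log2 ratio of -1.03. Kcnmb4, a subunit of the large-conductance channel best known from neurons, was at 57.6 CPM in PKO-NF1, 19.0 in NF1, 52.8 in PKO and 38.8 in WT. NF1 was the lowest library by far, 2.05-fold below WT (1.80 to 2.33), with PKO-NF1 3.03-fold above NF1 (2.69 to 3.43). With the trends removed these log2 ratios were -1.68 in place of -1.03 and 0.99 in place of 1.602, and the second was not called. Kcne4, which dampens Kv1 channels, was at 11.4 CPM in PKO-NF1, 5.48 in NF1, 13.7 in PKO and 13.5 in WT, 2.45-fold below WT in NF1 (1.94 to 3.12). Kcnmb1, the subunit typical of smooth muscle, had 21 counts in PKO-NF1, 5 in NF1, 14 in PKO and 19 in WT, 4.42-fold below WT in NF1 (1.6 to 15.1). Outside these classes Kcnt1, a sodium-activated channel gene, was also lower, with 8.05 CPM in PKO-NF1, 6.55 in NF1, 10.4 in PKO and 20.9 in WT. NF1 was 3.20-fold below WT (interval 2.61 to 3.95), a log2 ratio of -1.68 that became -1.09 with the trends removed. In all 6 members were lower in NF1 than in WT, 12.2% against 6.31% of all genes. Myelinating Schwann markers were lower in the same comparison in 8 of 10 cases and endothelial markers in 7 of 11, with sums of 7301 against 22820 CPM and 273.9 against 722.5 CPM and no marker at 0. Their part in the result was not tested.

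Kcne3, an auxiliary subunit that can hold voltage-gated channels open, was higher in both P2ry14-null libraries. It was at 8.48 CPM in PKO-NF1 and 8.83 CPM in PKO, against 3.70 CPM in NF1 and 3.72 CPM in WT. The pairs, which share no library, gave 2.37-fold in PKO against WT (1.76 to 3.23) and 2.29-fold in PKO-NF1 against NF1 (1.71 to 3.08). Neither was called with the trends removed, which left log2 ratios of 0.34 and 0.53. Kcne3 has one of the shorter transcripts of the set, 1323 bases. It was the only member called higher in both P2ry14 pairs, where 2.97% of all genes were. Called lower in both were 4 of 49, against 2.85% of all genes, Kcna1, Kcna7 and Kcnc1 among them, and Kcna7 and Kcnc1 are among the genes that were high in NF1.

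In PKO against WT, 5 members were higher (10.2%, against 10.0% of all genes) and 9 lower (18.4%, against 5.22%). Voltage-gated genes made up 6 of the 9, and 17 of 20 (85.0%) lay below WT, against 55.8% of all genes. The higher ones included Kcnh2, the hERG channel of cardiac repolarization, at 5.74 CPM in PKO-NF1, 8.12 in NF1, 25.6 in PKO and 11.7 in WT (PKO 2.19-fold above WT, 1.85 to 2.60), with Kcnk3, Kcnj8, Kcnj14 and Kcne3. The smooth muscle and pericyte list, which contains Kcnj8, summed to 1153 CPM in PKO and 742.0 CPM in WT. In that list 2 of 10 were higher, Kcnj8 itself and Tagln (599.1 CPM in PKO, 270.7 in WT), with none lower and none at 0. Neuronal markers were higher in PKO in 5 of 8 cases and lower in 1, with sums of 295.2 CPM in PKO and 124.9 CPM in WT. Of the 5 mast cell markers 4 were higher, at 817.2 CPM in PKO and 274.7 CPM in WT, and no marker of either list was at 0 in these libraries. The part of these cells in the channel results was not tested. Scaling by total counts shifted the all-gene median log2 ratio to -0.54, in place of -0.08. It left Kcnj14 as the 1 member higher in PKO and 15 lower, against 5.11% and 18.6% of all genes. Kcnj14 reached 1 CPM in PKO alone, so it had to be highest there. The calls of Kcnh2, Kcnk3, Kcnj8 and Kcne3 were lost at log2 ratios of 0.57 to 0.91.

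**Figure D4:**
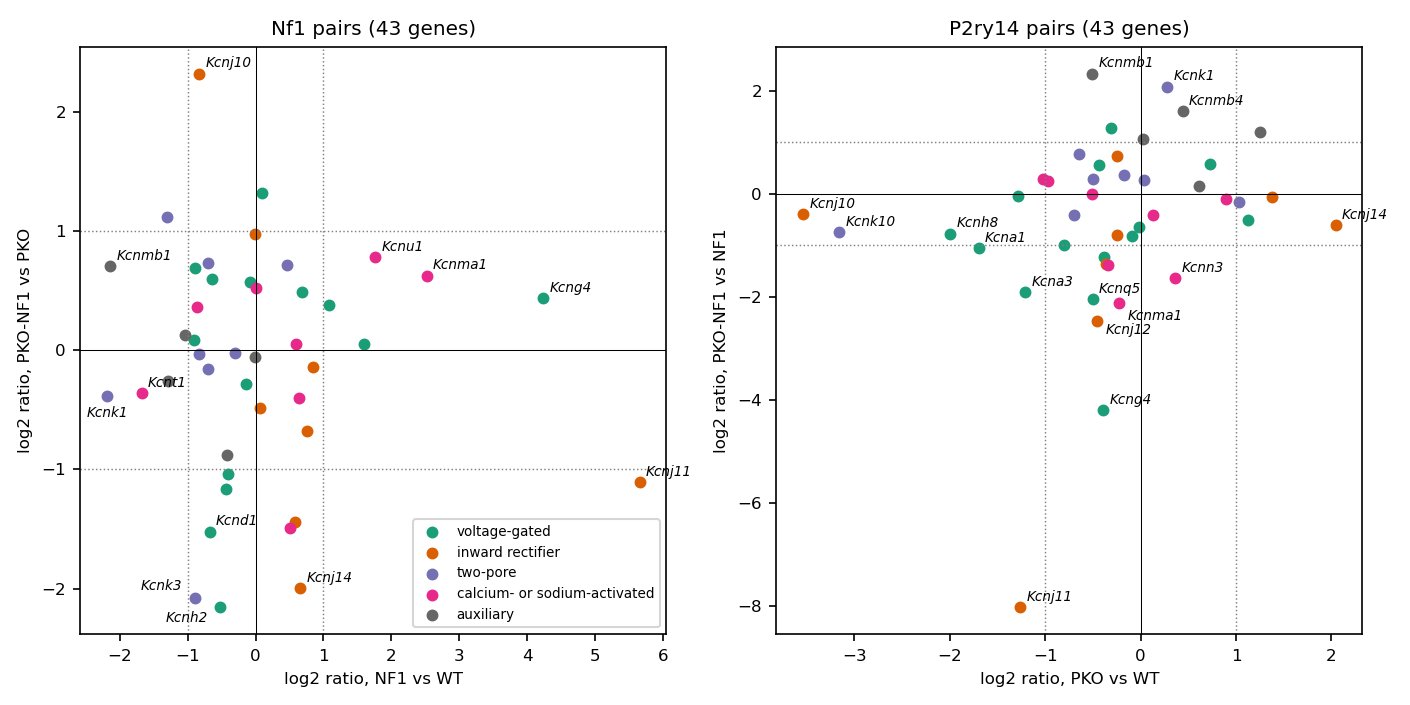
Scatter of log2 ratios for potassium channel genes, coloured by class, with NF1 vs WT against PKO-NF1 vs PKO on the left and PKO vs WT against PKO-NF1 vs NF1 on the right. Kcna7, Kcnc1 and Kcnc4, with a count of 0 in at least 1 library, are not drawn, and dotted lines mark 2-fold; no gene of the left panel is past 2-fold in the same direction on both axes with intervals that exclude 1.

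In PKO-NF1 against PKO, 11 members were lower (22.4%, against 9.70% of all genes) and 2 higher (4.08%, against 5.20%). Kcnh2 was 4.46-fold lower in this comparison (3.57 to 5.63). Among the others, Kcnc2, Kcnd1, Kcnn3 and Kcnj14 were under 5 CPM in every library. With the trends removed 5 members were higher and 9 lower, against 3.06% and 4.97% of all genes, and the log2 ratio of Kcnh2 was -1.40 in place of -2.16. Of the 10 myelinating Schwann markers 5 were lower in PKO-NF1 than in PKO, and of the 11 endothelial markers 6, with sums of 17700 against 33190 CPM and 460.0 against 840.2 CPM and no marker at 0. Their part in the result was not tested.

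No member was called in the same direction in both Nf1 pairs, where 1.29% of all genes were higher and 2.60% lower. Called in opposite directions in these pairs were 0 members and 0.571% of all genes. In PKO-NF1 against NF1, 17 members were lower (34.7%, against 13.8% of all genes) and 6 higher (12.2%, against 7.90%). The 17 include the 6 members that reached 1 CPM in NF1 alone (Kcna3, Kcna7, Kcnc1, Kcnc4, Kcng4 and Kcnj11). The filter placed these below NF1 in advance, so the share of lower members supports nothing. The libraries of this comparison also differ in sex by Xist and Ddx3y. Of the 5 auxiliary genes 4 were among the higher ones, Kcne3, Kcne4, Kcnmb1 and Kcnmb4, along with Kcnk1 and Kcns3. With the trends removed 3 stayed called, Kcnk1, Kcns3 and Kcnmb1. Kcns3, a silent subunit, was at 29.0 CPM in PKO-NF1, 11.9 in NF1, 17.9 in PKO and 22.2 in WT (2.43-fold above NF1, 2.07 to 2.85). Of 8 measured neuronal markers 6 were higher in PKO-NF1 than in NF1, the list summing to 223.3 against 91.04 CPM, with Syt1 at 0 in NF1. Of 6 adipocyte markers 5 were higher, at 6619 against 1929 CPM. Skeletal muscle markers went the other way, with 18 of 19 measured ones lower, at 314.2 against 58630 CPM. The part of these lists in the result was not tested.

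The remaining calcium- or sodium-activated genes were at low levels. Kcnn4, the intermediate-conductance channel of blood cells and endothelium, was at 10.6 CPM in PKO-NF1, 8.88 in NF1, 8.26 in PKO and 16.2 in WT. Kcnn1, a small-conductance channel gene, was at 4.94 CPM in PKO-NF1, 12.8 in NF1, 6.52 in PKO and 8.26 in WT, 2.60-fold lower in PKO-NF1 than in NF1 (2.02 to 3.38), a call lost at a log2 ratio of -1.0 with the trends removed. Kcnt2 lay between 3.15 and 4.52 CPM, and Kcnn2 between 1.18 and 1.78 CPM. Among the remaining voltage-gated genes, Kcnd3, an A-type channel gene of heart and neurons, ranged from 3.82 to 10.7 CPM and Kcnq1 from 1.83 to 3.42 CPM. Of the 49 genes 2 lie on the X chromosome, Kcnd1 and Kcne1l.

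An additive model over the 4 libraries, with a term for each genotype, had 1 residual degree of freedom, the interaction. Each p therefore measures a term against the misfit of additive effects, with no measure of how animals vary. By the edgeR quasi-likelihood test, 0 of 39 members passed a Benjamini-Hochberg adjusted p of 0.05 at the Nf1 term, where 0 of 14105 genes passed (0%), and the smallest adjusted p of a member was 0.184, for Kcnk3. At unadjusted p under 0.05, 3 members were higher and 4 lower at that term, against 8.17% and 12.7% of all genes. At the P2ry14 term 0 of 39 members passed, where 7 genes in all did (0.0496%), and the smallest edgeR adjusted p was 0.142, for Kcne3. At unadjusted p under 0.05, 2 members were higher and 7 lower there, against 11.5% and 13.6% of all genes. The DESeq2 Wald test called 0 members at the Nf1 term, against 2.01% of all genes, and 2 of 39 at the P2ry14 term, a share near the 5.10% of all genes. These were Kcna1 (log2 change -1.37, adjusted p 0.00843) and Kcnj10 (-1.95, adjusted p 0.0470).

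Channel partners outside the symbol rule were described from a list. Of 14 measured subunit and scaffold genes, 4 were higher and none lower in NF1 against WT, where 10.4% and 6.31% of all genes were: Abcc8, Abcc9, Lrrc38 and Cntnap2. Abcc8, Lrrc38 and Cntnap2 reached 1 CPM in NF1 alone. Abcc9, the sulfonylurea receptor that pairs with Kcnj8 and Kcnj11, was at 14.5 CPM in PKO-NF1, 38.0 in NF1, 23.2 in PKO and 16.99 in WT. Cntnap2 encodes Caspr2, which holds Kv1 channels beside the node, and had 2 counts in PKO-NF1, 88 in NF1, 4 in PKO and 5 in WT. Adam23, a partner of the LGI proteins that bind the Kv1 complex, was lowest in PKO, at 45.0 CPM in PKO-NF1, 72.5 in NF1, 21.9 in PKO and 70.0 in WT. It was 3.19-fold lower in PKO than in WT and 2.05-fold higher in PKO-NF1 than in PKO. In PKO-NF1 against PKO that list of 14 had 2 higher and 1 lower, where 5.20% and 9.70% of all genes were. In PKO against WT it had none higher and 1 lower, where 10.0% and 5.22% of all genes were. In PKO-NF1 against NF1 it had none higher and 6 lower, where 7.90% and 13.8% of all genes were.

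Of 14 measured potassium pump, cotransporter and HCN channel genes, 7 were lower and none higher in PKO-NF1 against PKO, with a median log2 ratio of -1.0, where 9.70% of all genes were lower and 5.20% higher. In NF1 against WT 4 were lower and 2 higher, against 6.31% and 10.4% of all genes. None was higher in PKO against WT, where 2 were lower (5.22% of all genes), or in PKO-NF1 against NF1, where 6 were lower (13.8%). Hcn4, a hyperpolarization-activated channel gene of pacemaker cells, was at 11.04 CPM in PKO-NF1, 22.6 in NF1, 30.5 in PKO and 61.8 in WT. It was called lower in each of the 4 comparisons, by 2.73-fold in NF1 against WT, 2.76-fold in PKO-NF1 against PKO, 2.03-fold in PKO against WT and 2.05-fold in PKO-NF1 against NF1. Slc12a7, a potassium-chloride cotransporter, was at 17.1 and 27.7 CPM in PKO-NF1 and NF1, against 43.7 and 64.3 CPM in PKO and WT.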

How the data were processed

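Sciatic nerve RNA of 4 genotypes was sequenced with 1 library each. The authors deposited whole-number counts per gene symbol, used as deposited with every column. Tools listed in the submitters' processing notes are featureCounts 1.5.2, HISAT2 2.0.5 and FastQC 0.11.7, with the build mm10. The strand setting, the annotation and the treatment of multi-mapping reads are not given in these sources. Reads shared by near-identical genes are therefore uncertain.

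TMM factors from edgeR 4.0.16 turned counts into CPM, and genes at 1 CPM in any library were kept. Ratios of CPM carry exact conditional (Clopper-Pearson) 95% intervals. The sources used here name no molecular identifiers and reads may be PCR copies, so intervals and the 3-count limit cover counting error only. A count of 0 was set to 3 counts in that library, and such a fold is given as at least that size, beside the lower end of its exact interval, which also covers the other library's counting error. The additive model used edgeR glmQLFit and glmQLFTest on 14105 genes at 1 CPM in at least 2 libraries, with DESeq2 1.42.0 as an alternative. It was also run on simulated counts that held additive effects only. That run cannot show how the test behaves where the genotype effects interact. Transcript lengths, GC content and positions were read from GENCODE M21 (GRCm38), matched directly for 22750 symbols and by RefSeq synonym for 933, with 379 unmatched.

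Members, lists and tests were chosen with earlier results of these data known. Genes given full values were the 3 highest per class per kilobase, those called alike in both Nf1 or both P2ry14 pairs, and the 5 largest per direction and comparison ranked on the interval end closest to a ratio of 1; others were named after their values were seen. Alternatives were DESeq2 size factors, total counts, TMM without muscle markers, no filter, a 5 CPM filter, a 1.5-fold threshold, and removal of spline trends (4 degrees of freedom) over length and GC content. Adgre1 and Epb41l3 of the fixed lists were not analysed here, and some genes of the set enter the counts but are not reported here by name or drawn.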

Additional observations from a re-analysis of the deposited data

How the results depend on the processing

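No paired analysis was possible because each genotype has 1 library and the labels carry no replicate numbers. The 10 counts of called members kept within 1.5 times of their value with DESeq2 size factors, with TMM scaling without skeletal muscle markers and with no filter on low values. Scaled by total counts, 12 members were lower in NF1 vs WT (6 with TMM), 1 was higher and 15 were lower in PKO vs WT (5 and 9), and 1 was lower in both Nf1 pairs (0). At 5 CPM, 6 were lower in PKO-NF1 vs PKO (11). At 1.5-fold, 14 were higher and 16 lower in NF1 vs WT (9 and 6), 8 were higher in PKO-NF1 vs PKO (2), and 1 was higher and 2 were lower in both Nf1 pairs (0 and 0). With the length and GC trends removed, 5 were higher in PKO-NF1 vs PKO (2), 3 were higher in PKO-NF1 vs NF1 (6) and 1, Kcnma1, was higher in both Nf1 pairs (0). The cause of these shifts was not tested, beyond fewer genes at 5 CPM and a looser threshold at 1.5-fold. No called ratio of a named member changed sign under the 4 scaling and trend alternatives. In the additive model the Nf1 term called 0 genes by edgeR, 284 by the DESeq2 Wald test and 46 by edgeR with no filter, and the P2ry14 term called 7, 720 and 108. Scaling by total counts moved the median log2 ratio of all genes to -0.22 in NF1 vs WT, -0.54 in PKO vs WT and -0.18 in PKO-NF1 vs NF1. The share of calls that were higher was then 41.2% in NF1 vs WT, against 62.3% with TMM, 21.6% in PKO vs WT, against 65.7%, and 22.5% in PKO-NF1 vs NF1, against 36.4%. With the trends removed it was 47.3% in PKO vs WT. With 1 library per genotype, depth limits members under about 1 CPM, and differences between animals are unmeasured throughout.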
